A study of Mus musculus with 4 samples.

Results

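The transforming growth factor-β (TGF-β) and bone morphogenetic protein (BMP) genes described here comprise 43 genes: 15 ligands of the TGF-β, BMP, growth and differentiation factor and activin families, 11 receptors, 8 Smad transducers, 5 secreted antagonists, the follistatin-like *Fstl1*, and the 3 inhibitor-of-differentiation genes *Id1*, *Id2* and *Id3*. They were taken by name from the 22911 genes that could be named on the array, by a rule that uses gene names and no measured value. RNA was measured on 4 one-color Agilent arrays, 1 for each of 4 sorted populations. These were mesenchymal stroma cells (MSCs) and CD8+ T cells from subcutaneous *Bcr-abl*+ tumors of wild type (Wt) mice, and the same populations from tumors of mice with *Sipa1* knocked out (*Sipa1*-/-). *Sipa1* encodes a GTPase-activating protein of the small GTPase Rap1. Every host was of strain C57BL/6Ncr, 8 weeks old, and had received *Bcr-abl*+ hematopoietic progenitor cells marked with GFP, placed in Matrigel under the skin, with tumors taken on day 12. MSCs were sorted as GFP- CD45- Ter119- CD31- cells, a gate defined by what the cells lack, and CD8+ T cells as GFP- TCRb+ CD8+ cells. *Sipa1* was missing from the whole host, so its loss in MSCs and in T cells cannot be separated. The labels give 5 mice per genotype and do not say whether RNA was pooled.

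TGF-β and activin ligands bind a type II receptor that recruits and phosphorylates a type I receptor, and the type I receptor then phosphorylates *Smad2* and *Smad3*. Many BMPs and some related growth and differentiation factors, though not all of the listed ones, signal in the same way through their own receptors to *Smad1*, *Smad5* and *Smad9*. Both groups of Smads enter the nucleus with the shared *Smad4*. In connective tissue TGF-β is known for driving matrix production and the contractile state of fibroblasts, and BMPs are known for bone formation and for inducing Id genes. Secreted antagonists such as noggin, gremlin and follistatin bind ligands outside the cell, and the inhibitory *Smad6* and *Smad7* act inside it as feedback.

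With 1 array per population there was no replicate, so no test was made and no p-value is given. The number of arrays limits the precision. Each value carries the error that the scanner software assigns to a spot, which covers the spot's measurement only and not the spread between mice or sorts. Levels are log2 signals relative to the 75th percentile of each array, and a log2 ratio of 1 is a 2-fold difference. Levels of different genes come from different probes and are not compared. All 4 arrays lay on 1 slide and were scanned together. Between 60.3% and 65.3% of the spots were well above background, and no spot was saturated. The deleted gene *Sipa1* was lower on both *Sipa1*-/- arrays on each of its 2 probes, with log2 ratios of -1.25 and -1.59 in MSCs and of -1.67 and -2.05 in CD8+ T cells, and was well above background on every array. Whether its probes lie in the deleted part was not examined. In these bulk sorts, a smaller share of cells of a type and less RNA per cell cannot be told apart.

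The labelled cell types were checked against marker genes. All 14 fibroblast markers were well above background on both MSC arrays, and all 12 CD8+ T cell markers were on both CD8+ T arrays. Detection alone did not separate the sorts. Of the fibroblast markers, 13 were also well above background on the Wt and 14 on the *Sipa1*-/- CD8+ T array. Of the CD8+ T cell markers, 11 were on the Wt and 12 on the *Sipa1*-/- MSC array. In units of the 75th percentile, the CD8+ T cell markers summed to 20.0 (Wt) and 4.8 (*Sipa1*-/-) in MSCs. In CD8+ T cells their sums were 572 and 600. The Wt MSC sum came mostly from *Cd2*, whose MSC levels were 4.08 (Wt) and 0.56 (*Sipa1*-/-). Of the 11 CD8+ T cell markers measured on both MSC arrays, 4 were at least 2-fold higher in *Sipa1*-/- and 3 lower. Their median log2 ratio was 0.66. The Wt MSC array also carried transcripts of another lineage. Summed over 12 B-lineage markers, the signal in units of the 75th percentile was 684 for Wt and 41.9 for *Sipa1*-/- MSCs, where *Rag1* alone was not well above background, against 29.6 and 21.1 for Wt and *Sipa1*-/- CD8+ T cells. For 14 fibroblast markers the sums were 1107 and 1907 in MSCs and 261 and 359 in CD8+ T cells in the same order. Most of the CD8+ T sums came from *Thy1*, at 7.37 (Wt) and 7.46 (*Sipa1*-/-), and *Vim*, at 5.69 and 5.60. Of the 13 fibroblast markers measured on both CD8+ T arrays, 11 were at least 2-fold higher in *Sipa1*-/-, and these 2 were not. The sums of 7 erythroid markers were 1013 and 1076 in MSCs, although the gate excluded Ter119, and 31.2 and 14.1 in CD8+ T cells. Those of 9 granulocyte markers were 726 and 815 in MSCs and 627 and 332 in CD8+ T cells. The part of these transcripts in the ratios below was not tested.

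In MSCs the ligand, receptor and antagonist genes were mostly higher on the *Sipa1*-/- array, the Smads less so, and *Tgfb1* was the only measured one lower by 2-fold or more. Of the 43 genes, 37 had a probe that passed the quality flags on both MSC arrays. In *Sipa1*-/- MSCs 23 of these 37 exceeded their Wt level by 2-fold or more, against 19.3% of all 15298 genes measured, and 1 fell short of it by that much, against 11.3%. Higher genes made up 63.1% of all genes past 2-fold, 74.1% when the authors' array constants of the series matrix were kept and 54.1% with median scaling. The median log2 ratio of the 37 was 1.39, from -2.12 for *Tgfb1* to 2.80 for *Gdf10*, and that of all genes was 0.04. When flags were ignored and all 43 genes counted, 27 were at least 2-fold higher and 1 lower, with a median of 1.45. With another background correction (normexp) 18 of the 37 were at least 2-fold higher and the median was 0.89, the genes no longer past 2-fold being *Bmp3*, *Bmp6*, *Acvr1b*, *Acvr2a* and *Chrd*. Of these, *Bmp3* and *Acvr1b* also fell inside 2-fold with median scaling and quantile normalization, and *Chrd* with median scaling.

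**Figure D1:**
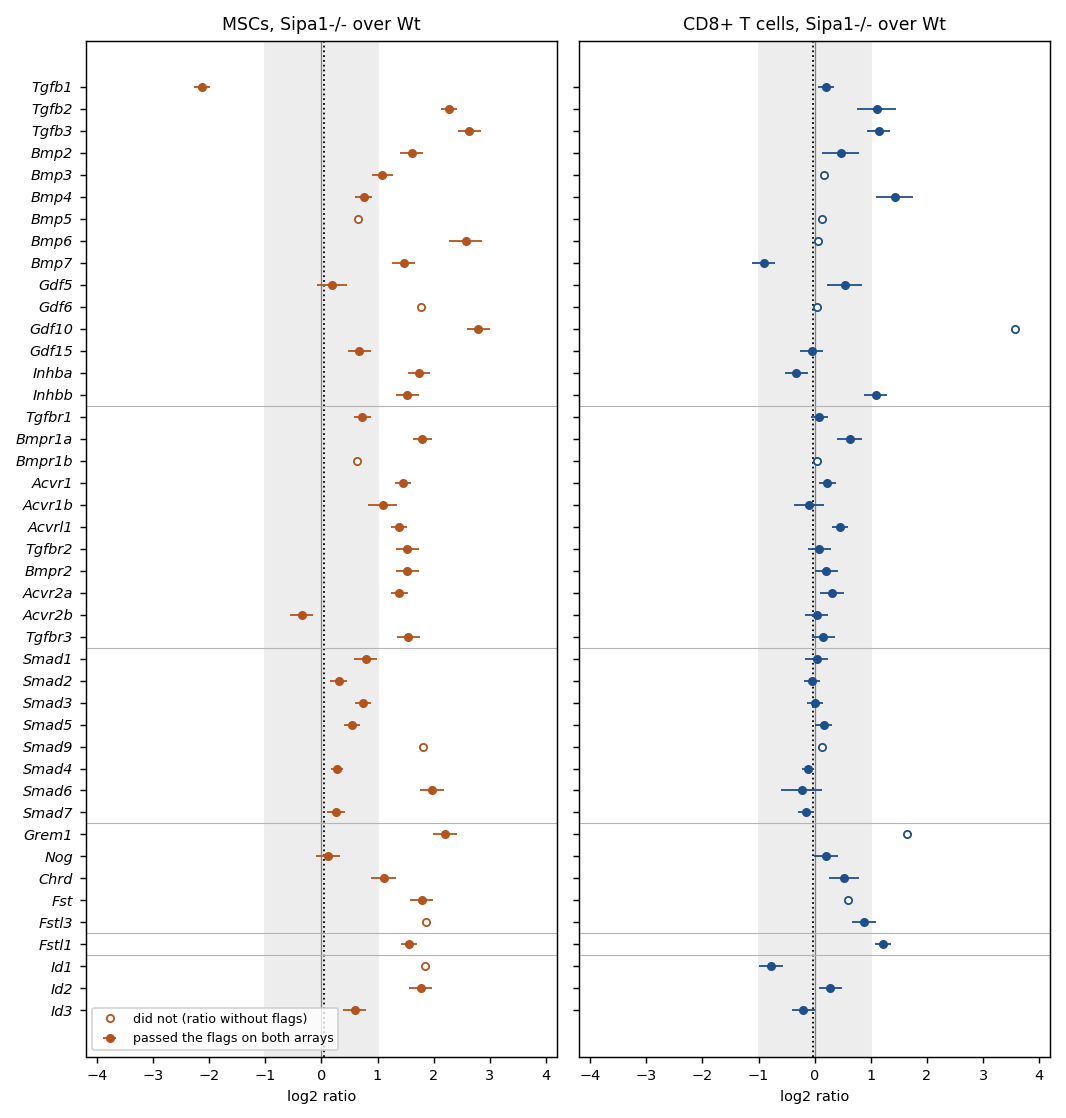
Log2 ratio of *Sipa1*-/- over Wt for each of the 43 genes (x axis) in MSCs (left) and CD8+ T cells (right), 1 array per population, grouped by role. Filled points passed the flags on both arrays and carry the scanner software's error as bars. Open points did not pass and show the ratio without flags. The grey band marks less than 2-fold and the dotted line the median of all genes measured. In MSCs most ligands and receptors lie to the right of the band and *Tgfb1* lies to its left, whereas in CD8+ T cells most genes lie inside it.

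Promoter sequence is shown for genes from both ends of this range, so that the letters before their start sites can be seen beside the values. The sequences are from RefSeq on build GRCm38.p6, which held 29 of the 43 genes in 35 promoter windows. Each is written 5′ to 3′ on the gene's strand and covers the 250 bases before the start site. Capitals mark 3 motifs searched on both strands: the palindrome GTCTAGAC and the shorter CAGAC, which does not lie within it, both known as Smad-binding letters, and the GC-rich palindrome GGCGCC found in BMP-responsive elements. *Tgfb1* is shown as the gene at least 2-fold lower, at chr7:25686752-25687001 on the + strand. *Tgfb2*, its isoform with the opposite ratio, is at chr1:186705990-186706239 on the - strand. *Gdf10*, with the largest ratio, is at chr14:33923337-33923586 on the + strand. *Smad6* and *Id2*, the BMP feedback and target genes at least 2-fold higher, are at chr9:64022056-64022309 and chr12:25096093-25096342, both on the - strand, and *Smad6* is shown to 4 bases past its start because a motif spans it.
*Tgfb1*: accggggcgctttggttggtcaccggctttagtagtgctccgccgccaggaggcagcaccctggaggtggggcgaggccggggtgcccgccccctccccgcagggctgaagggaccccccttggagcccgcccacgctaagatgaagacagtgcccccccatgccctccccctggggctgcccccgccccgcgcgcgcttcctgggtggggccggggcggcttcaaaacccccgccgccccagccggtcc
*Tgfb2*: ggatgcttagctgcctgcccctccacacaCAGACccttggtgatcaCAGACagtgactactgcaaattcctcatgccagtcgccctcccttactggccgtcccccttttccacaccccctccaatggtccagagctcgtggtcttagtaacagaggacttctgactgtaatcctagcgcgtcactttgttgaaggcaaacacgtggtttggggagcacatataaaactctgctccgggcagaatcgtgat
*Gdf10*: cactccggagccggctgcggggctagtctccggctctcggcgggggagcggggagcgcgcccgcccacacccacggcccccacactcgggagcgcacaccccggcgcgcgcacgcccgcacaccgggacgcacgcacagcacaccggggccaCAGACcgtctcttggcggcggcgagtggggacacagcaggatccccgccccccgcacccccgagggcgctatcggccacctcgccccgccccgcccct
*Smad6*: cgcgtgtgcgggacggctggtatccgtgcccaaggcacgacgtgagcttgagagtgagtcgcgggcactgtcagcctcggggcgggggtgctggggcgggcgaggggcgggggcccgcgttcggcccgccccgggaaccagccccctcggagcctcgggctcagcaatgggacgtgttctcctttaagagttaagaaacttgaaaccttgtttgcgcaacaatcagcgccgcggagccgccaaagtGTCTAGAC
*Id2*: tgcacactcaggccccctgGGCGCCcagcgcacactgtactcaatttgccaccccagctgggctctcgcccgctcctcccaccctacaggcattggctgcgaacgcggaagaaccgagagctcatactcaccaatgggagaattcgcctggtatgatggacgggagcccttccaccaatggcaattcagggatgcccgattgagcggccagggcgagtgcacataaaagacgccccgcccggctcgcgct
Among the 5 sequences GTCTAGAC occurred once, at the *Smad6* start site, beginning 4 bases before it. Within the 250 bases before the start, GTCTAGAC was present in 0 of the 35 windows of the listed genes and in 0.167% of all 32851 windows. In the whole 300-base windows, which run 50 bases past the start, it was present in 1 of the 35 (2.86%), that of *Smad6*, and in 0.213% of all. *Tgfb2* held CAGAC at 2 places and *Gdf10* at 1, and 45.7% of the windows of the listed genes and 42.2% of all windows held it within the 250 bases before the start. GGCGCC stood once in *Id2*, in 22.9% of the windows of the listed genes and in 9.59% of all, where the median GC content was 66.8% and 52.4% in the same order. The window of *Tgfb1* held none of the 3 motifs. A match describes letters only, and no binding was measured.

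The 3 TGF-β isoforms, which share the same receptors, differed in direction. *Tgfb1*, the isoform that blood and immune cells express broadly, had a level of 0.66 in Wt and -1.46 in *Sipa1*-/- MSCs, a log2 ratio of -2.12 ± 0.15, or 4.36-fold lower. Its 2 probes gave -2.05 and -2.19. *Tgfb2* had levels of -1.29 and 0.98, a ratio of 2.27 ± 0.14, or 4.82-fold higher, with 2.33 and 2.20 on its probes. *Tgfb3* went from 1.74 to 4.37, a ratio of 2.63 ± 0.20, or 6.21-fold higher on its single probe. Of the isoforms only *Tgfb1* thus had its higher MSC level in Wt tumors. Beside the *Tgfb1* value, all 10 markers common to leukocytes were lower on the *Sipa1*-/- MSC array, 8 of them at least 2-fold, with a median ratio of -1.69 and a summed signal of 170 in Wt and 47.5 in *Sipa1*-/- MSCs. Their part in the *Tgfb1* ratio was not tested.

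Among BMPs and growth and differentiation factors, 8 of 10 genes were measured on both MSC arrays, 5 of them 2-fold or more above Wt in *Sipa1*-/- MSCs and none below. *Gdf10* (Bmp3b), a secreted member that is structurally close to *Bmp3*, had levels of 0.30 and 3.10, the largest ratio of the 37 measured genes at 2.80 ± 0.20, or 6.95-fold. *Bmp6*, a BMP that also takes part in the control of iron through hepcidin, had levels of -5.20 and -2.63, a ratio of 2.57 ± 0.30, and its Wt level was close to background. With normexp its ratio was 0.88, inside 2-fold. *Bmp2*, an osteogenic ligand, went from -3.36 to -1.75 with a ratio of 1.61 ± 0.21. *Bmp7*, known from kidney and bone development, went from -0.58 to 0.89 with a ratio of 1.47 ± 0.20. *Bmp3*, a member that opposes osteogenic BMP signals, was dim on both arrays, at -4.54 and -3.45, and had a ratio of 1.09 ± 0.19. The remaining 3 genes were within 2-fold. *Bmp4*, a ligand with broad roles in development, had levels of -1.62 and -0.87 and a ratio of 0.75 ± 0.15. *Gdf15*, a stress-induced ligand, had levels of -0.42 and 0.25 and a ratio of 0.67 ± 0.20. *Gdf5*, which patterns joints, was dim at -4.62 and -4.44, a difference of 0.18 ± 0.26 that is smaller than its error.

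Both activin subunits were higher on the *Sipa1*-/- MSC array. *Inhba*, which encodes the subunit of activin A, had levels of -0.95 in Wt and 0.79 in *Sipa1*-/- MSCs, a ratio of 1.74 ± 0.20. *Inhbb*, which encodes the subunit of activin B, had levels of 1.16 and 2.69, a ratio of 1.53 ± 0.20. Over all ligand families, 9 of 13 measured genes were at least 2-fold higher, 1 lower and 3 within 2-fold, with a median of 1.53.

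Most receptors were higher on the *Sipa1*-/- array by similar ratios. Of 11 receptor genes 10 were measured in MSCs, 8 were at least 2-fold higher on the *Sipa1*-/- array, and these 8 lay between 1.09 and 1.80. *Tgfbr2*, the type II receptor of TGF-β, went from 4.88 to 6.41 with a ratio of 1.53 ± 0.20, or 2.88-fold. Its partner *Tgfbr1*, the type I receptor also known as ALK5, went from -1.85 to -1.13 with a ratio of 0.73 ± 0.15, and its probes gave 0.42 and 1.04. *Tgfbr3* (betaglycan), a co-receptor that presents TGF-β2, went from 1.95 to 3.50 with a ratio of 1.55 ± 0.20. Both TGF-β receptors and the co-receptor thus had higher levels on the *Sipa1*-/- array, with *Tgfbr1* inside 2-fold.

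The BMP receptor *Bmpr2*, a type II receptor, had levels of 0.87 and 2.40 and a ratio of 1.53 ± 0.20. *Bmpr1a*, a type I receptor of BMPs, had levels of -2.54 and -0.74 and a ratio of 1.80 ± 0.17, with 1.81 and 1.78 on its probes. *Acvr1* (ALK2), a type I receptor for BMPs and activins, went from 0.58 to 2.03 with a ratio of 1.45 ± 0.14. *Acvrl1* (ALK1), which is best known from endothelium, went from 0.05 to 1.43 with a ratio of 1.38 ± 0.14, beside 8 measured endothelial markers of which 2 were at least 2-fold higher and 1 lower, with a median of 0.33. The 2 were *Kdr* at 1.71 and *Tek* at 1.53, and the lower one was *Pecam1* (CD31), the antigen excluded by the gate, at -1.49. The part of endothelial transcripts in the *Acvrl1* ratio was not tested. The activin receptors were uneven. *Acvr2a*, a type II receptor, had levels of -3.00 and -1.61 and a ratio of 1.39 ± 0.15. *Acvr1b* (ALK4), a type I receptor, was dim at -4.64 and -3.55 with a ratio of 1.09 ± 0.26. *Acvr2b*, the other type II receptor of activins, was the only measured receptor on the other side of 0, with levels of 0.01 and -0.34 on the probe that passed the flags, a ratio of -0.35 ± 0.20.

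The Smads, which carry the signal inside the cell, had the smallest ratios as a list. All 4 measured receptor-regulated Smads were within 2-fold in MSCs. Of the BMP-side Smads, *Smad1* had levels of 1.77 and 2.56, a ratio of 0.79 ± 0.20, and *Smad5* had 0.14 and 0.68, a ratio of 0.54 ± 0.14. On the TGF-β and activin side, *Smad3* had levels of 0.51 and 1.24, a ratio of 0.74 ± 0.14. *Smad2* had -0.17 and 0.13, a ratio of 0.30 ± 0.14 over probes that disagreed in direction, with -0.22 and 0.83, so that no direction can be given for it. *Smad4*, the common partner, was measured on 4 probes whose ratios ran from -0.04 to 0.52, with a mean of 0.28 ± 0.10. The 2 inhibitory Smads differed. *Smad6*, which restrains BMP receptors, had levels of -3.41 and -1.44 and a ratio of 1.97 ± 0.21, or 3.92-fold. *Smad7*, which restrains TGF-β receptors, had levels of -2.61 and -2.36 and a ratio of 0.25 ± 0.16. The median of the 7 measured Smads was 0.54, beside 1.53 for the ligands and 1.42 for the receptors.

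Secreted antagonists were higher on the *Sipa1*-/- MSC array except that noggin was within its error. *Grem1* (gremlin), which binds several BMPs, had levels of -2.36 and -0.16 and a ratio of 2.20 ± 0.21, or 4.60-fold. *Fst* (follistatin), which captures activins, had levels of -1.36 and 0.43 and a ratio of 1.79 ± 0.20. *Chrd* (chordin), also a BMP antagonist, was dim, at -3.98 and -2.87, with a ratio of 1.11 ± 0.22. *Nog* (noggin), which blocks BMPs from their receptors, had levels of -2.44 and -2.33, a difference of 0.12 ± 0.21 that is smaller than its error and that turned to -0.02 when arrays were scaled by their medians. *Fstl1*, a secreted glycoprotein of mesenchymal cells that is related to follistatin, had high levels of 5.71 and 7.27 and a ratio of 1.56 ± 0.14, with 1.56 on each of its 2 probes.

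The Id genes encode proteins that block basic helix-loop-helix factors, and they are direct targets of BMP Smads. In MSCs *Id2* had levels of 0.55 and 2.32 with a ratio of 1.77 ± 0.20, or 3.41-fold, and *Id3* had levels of 2.54 and 3.13 with a ratio of 0.60 ± 0.20, within 2-fold. The *Id1* spot was well above background on both arrays but failed a uniformity flag on the *Sipa1*-/- array. Without flags its levels were -2.36 and -0.52, a ratio of 1.84 ± 0.21.

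The 6 genes not measured on both MSC arrays fell into 3 kinds. *Id1* and *Fstl3*, a follistatin-like inhibitor of activin, were well above background on both arrays and failed only uniformity flags on the *Sipa1*-/- array, and *Fstl3* had a ratio of 1.86 ± 0.20 without flags. *Bmp5*, *Bmpr1b* and *Smad9* were well above background on the *Sipa1*-/- array alone. Each was bounded against the lowest signal well above background on the Wt array. The bounds were at least 1.74-fold higher for *Bmp5*, at least 1.52-fold for *Bmpr1b* and at least 1.52-fold for *Smad9*. They leave out the spot error. Without flags the log2 ratios were 0.66 ± 0.44, 0.64 ± 0.41 and 1.81 ± 0.83 in the same order. The *Bmp5* bound used 1 of its 2 probes, and the other was not well above background on either array, at -6.34 and -6.35. *Gdf6* was not well above background on either MSC array, nor on the CD8+ T arrays. With these bounds all 43 genes are accounted for.

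**Figure D2:**
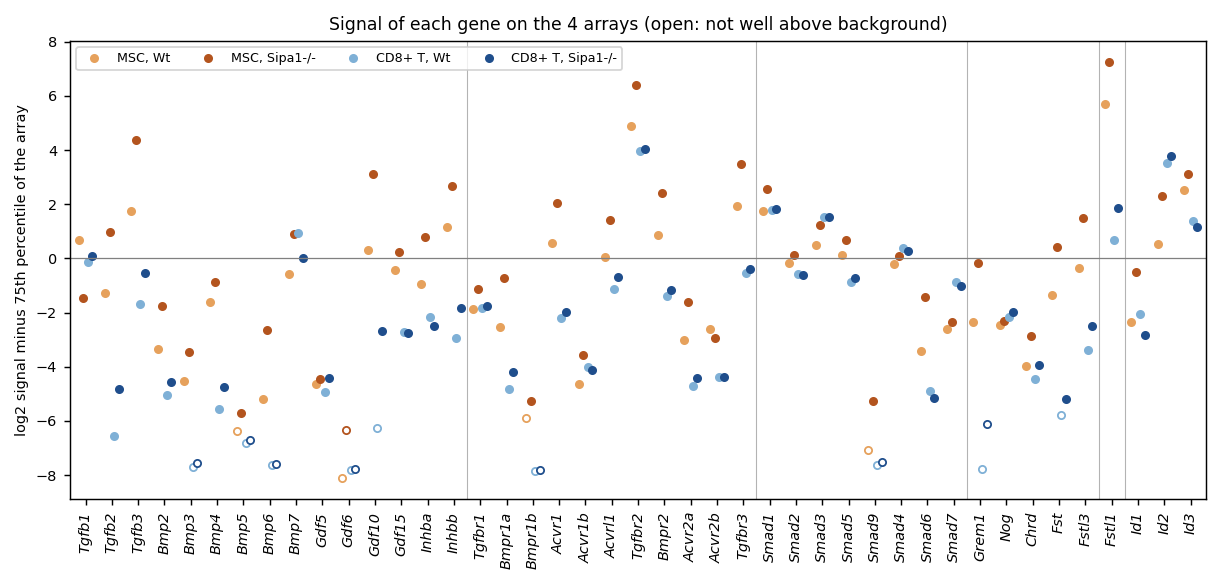
Log2 signal relative to the 75th percentile of each array (y axis) for the 43 genes, averaged over all probes of a gene, on the 4 arrays, 1 array per population. Open points were not well above background on that array. Levels compare arrays within a gene and not genes with each other. The *Sipa1*-/- MSC array is the highest of the 4 for most ligands, receptors and antagonists, while for *Tgfb1* it is the lowest.

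The other genes of the pathway, 84 in all, are given as counts by functional list. On the MSC arrays 70 of them were measured, of which 42 were at least 2-fold higher, 1 lower and 27 within 2-fold on the *Sipa1*-/- array, with a median of 1.26. Of all genes measured, 19.3% were higher and 11.3% lower by that much, and each list below is to be read against these shares. Of the genes for storing and activating latent TGF-β, 10 of 11 measured were at least 2-fold higher and 1 lower, with a median of 1.50. The highest was *Lrrc32* (GARP), which holds latent TGF-β on the cell surface, with levels of 2.22 and 4.43 and a ratio of 2.22 ± 0.20. The gene that was lower was *Nrros*, which does the same in myeloid cells, with levels of 4.24 and 1.79 and a ratio of -2.45 ± 0.20. Genes known to be induced by TGF-β were at least 2-fold higher in 10 of 12 cases, with a median of 1.69. Among these 10 was *Ltbp2*, at 1.50, which is also counted above among the genes for latent TGF-β. *Postn* (periostin) had the largest ratio, 2.54 ± 0.12, and *Ccn2* (connective tissue growth factor) had 1.85, whereas *Col1a1*, also a fibroblast marker, had 0.26. Genes known to be induced by BMPs, a list that also holds *Smad6* and *Smad7*, were at least 2-fold higher in 6 of 8 measured cases with a median of 1.82. Of these, *Msx1*, a homeobox gene, had levels of -0.20 and 1.94 with a ratio of 2.14 ± 0.20. The others past 2-fold were dim in Wt MSCs, at -5.35 for *Id4*, -5.30 for *Runx2*, -4.28 for *Hey1*, -4.04 for *Atoh8* and -3.41 for *Smad6*. The lowest signal well above background on that array was -5.86. Of the intracellular regulators, 3 of 12 were at least 2-fold higher and the median was 0.25. The counts were 8 of 11 for other antagonists with a median of 1.17, 5 of 12 for other ligands with 0.64 and 2 of 7 for other receptors with 0.87, and none of these were lower by 2-fold.

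Beside these MSC values, 7 of 12 measured fibroblast markers were at least 2-fold higher on the *Sipa1*-/- MSC array and none lower. Their median was 1.35, beside 1.39 for the 37 genes, but the list was split. The 5 within 2-fold were *Col1a1* at 0.26, *Col1a2* at 0.35, *Col3a1* at 0.38, *Vim* at 0.69 and *Dcn* at 0.86. The highest was *Fap* at 2.04. All 11 measured B-lineage markers were at least 2-fold lower with a median of -4.22, and all 10 cell cycle genes were at least 2-fold lower with a median of -2.06. Adipocyte markers had a median of 1.42, with 2 of 3 measured at least 2-fold higher, and Schwann cell markers 1.09, with 3 of 5. Skeletal muscle markers had a median of 0.76 and keratinocyte markers 0.75. Pericyte and smooth muscle markers had a median of 0.62, macrophage markers 0.92, granulocyte markers 0.22 and erythroid markers 0.03. The part of these lists in the pathway ratios was not tested.

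**Figure D3:**
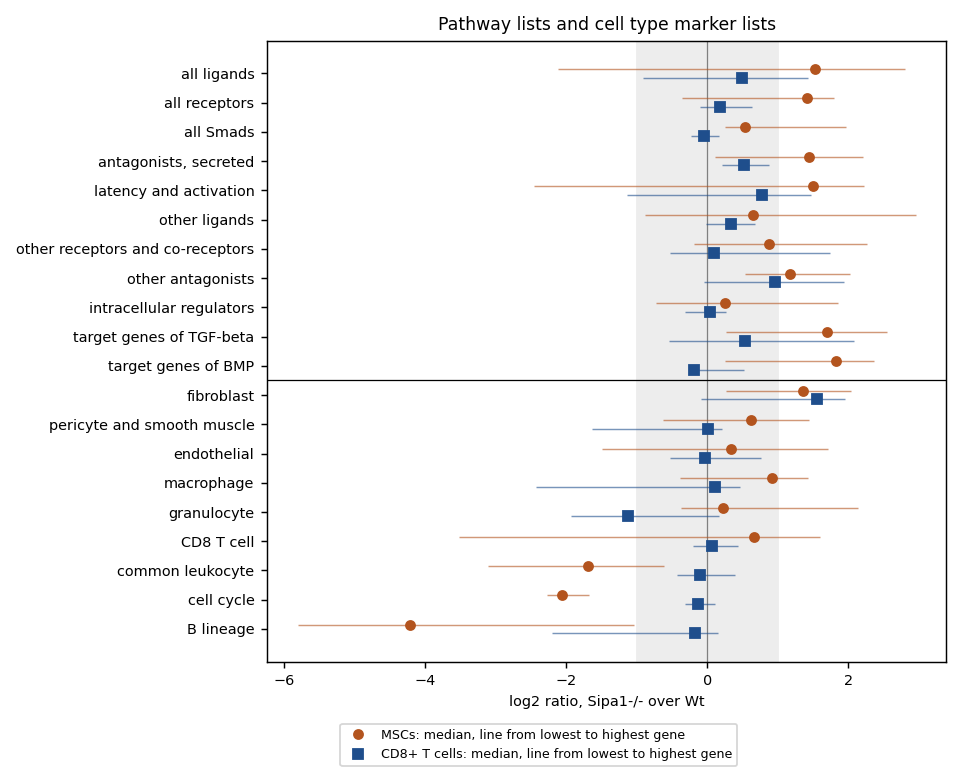
Median log2 ratio of *Sipa1*-/- over Wt (x axis) for lists of pathway genes, above the black line, and of cell type markers, below it, in MSCs (circles) and CD8+ T cells (squares), 1 array per population. Thin lines run from the lowest to the highest measured gene of a list, and the grey band marks less than 2-fold. In MSCs the fibroblast median is 1.35, beside 1.53 for the ligands and 1.42 for the receptors, and the B-lineage median lies at -4.22.

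In CD8+ T cells most pathway genes were within 2-fold between genotypes, and those past 2-fold were ligands and *Fstl1*. Of the 43 genes 34 were measured on both CD8+ T arrays. *Sipa1*-/- cells exceeded Wt cells by 2-fold or more for 5 of them, against 2.66% of all 14339 genes measured, and fell short of them by as much for none, against 1.4%. Higher genes made up 65.5% of all genes past 2-fold, 76.3% with the series matrix and 52.5% with median scaling. The median was 0.18, and that of all genes was -0.02. *Fstl1* went from 0.66 to 1.88, a ratio of 1.21 ± 0.14, and was the only one of the 5 above the median signal of all genes. *Tgfb3* went from -1.69 to -0.55 with a ratio of 1.14 ± 0.21, and *Inhbb* from -2.93 to -1.85 with 1.08 ± 0.21. *Bmp4* and *Tgfb2* rested on 1 probe each with Wt levels near background. *Bmp4* went from -5.13 to -3.71, a ratio of 1.42 ± 0.33 that was 0.83 when both of its probes were used without flags. *Tgfb2* went from -5.30 to -4.19, a ratio of 1.10 ± 0.35. Under scaling by the median 2 genes remained at least 2-fold higher, *Bmp4* and *Fstl1*, and with normexp only *Fstl1* did.

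*Gdf10* could be given only as a bound in CD8+ T cells. It was not well above background on the Wt array and had a level of -2.68 on the *Sipa1*-/- array, at least 7.38-fold higher. *Fst* was likewise well above background on the *Sipa1*-/- array alone, at least 1.31-fold higher before its spot error. Without flags its log2 ratio was 0.59 ± 0.48. *Bmp3*, *Bmp5*, *Bmp6*, *Bmpr1b*, *Smad9*, *Grem1* and *Gdf6* were not well above background on either CD8+ T array. Beside the ligand values, 11 of 13 measured fibroblast markers were at least 2-fold higher on the *Sipa1*-/- CD8+ T array with a median of 1.55, *Col1a1* going from 2.74 to 4.29, while the CD8+ T cell markers had a median of 0.06 with 0 of 12 past 2-fold. Granulocyte markers had a median of -1.12 and erythroid markers -1.16. The part of these transcripts in the CD8+ T ratios was not tested. Of the 84 other pathway genes 63 were measured, 12 of them at least 2-fold higher and 1, the TGF-β activator *Thbs1*, lower at -1.14, with a median of 0.27. The shares of all genes measured were 2.66% higher and 1.4% lower. Of those above the median signal, *Postn* had the largest ratio at 2.08 ± 0.12, followed by the BMP antagonist *Nbl1* at 1.94 ± 0.20 and the TGF-β-binding proteoglycan *Dcn* (decorin), also a fibroblast marker, at 1.68 ± 0.20. The targets of BMPs had a median of -0.18 and those of TGF-β 0.54.

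The receptors and Smads of the CD8+ T cells differed little between genotypes. All 10 measured receptors were within 2-fold, from -0.10 for *Acvr1b* to 0.63 for *Bmpr1a*. Median scaling, which shifted all CD8+ T ratios by -0.15, put *Tgfbr1*, *Tgfbr2*, *Acvr2b*, *Smad1* and *Smad3* below 0. The series matrix, with a shift of 0.13, put *Acvr1b*, *Smad2*, *Smad4* and *Gdf15* above 0, and with normexp *Acvr1b*, *Smad6*, *Gdf15*, *Tgfbr1* and *Smad3* turned sign, so that no direction can be given for these 10 genes. *Tgfbr2* had levels of 3.97 and 4.05, a ratio of 0.08 ± 0.20, and *Tgfbr1* had -1.84 and -1.76, a ratio of 0.08 ± 0.15. All 7 measured Smads lay between -0.24 and 0.16, and *Smad3* had the same level of 1.55 on both arrays. *Tgfb1* had levels of -0.12 and 0.08, a ratio of 0.20 ± 0.14, where the MSC ratio was -2.12. The Id genes and *Bmp7* moved to either side without reaching 2-fold. *Id1* had levels of -2.04 and -2.82, a ratio of -0.78 ± 0.21. *Id2*, which supports effector T cells, had 3.51 and 3.79, a ratio of 0.28 ± 0.20, and *Id3*, known from memory precursors, had 1.37 and 1.17, a ratio of -0.20 ± 0.20. *Bmp7* had levels of 0.94 and 0.03, a ratio of -0.91 ± 0.20. The other measured ligands and antagonists were within 2-fold. *Fstl3* had the largest ratio of these at 0.88 ± 0.22, from -3.38 to -2.51, followed by *Gdf5* at 0.53 ± 0.32, *Chrd* at 0.52 ± 0.27 and *Bmp2* at 0.46 ± 0.33, all 3 dim on both arrays. *Nog* had 0.20 ± 0.21 and *Gdf15* -0.06 ± 0.21, each within its error, and *Inhba* had -0.33 ± 0.21.

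**Figure D4:**
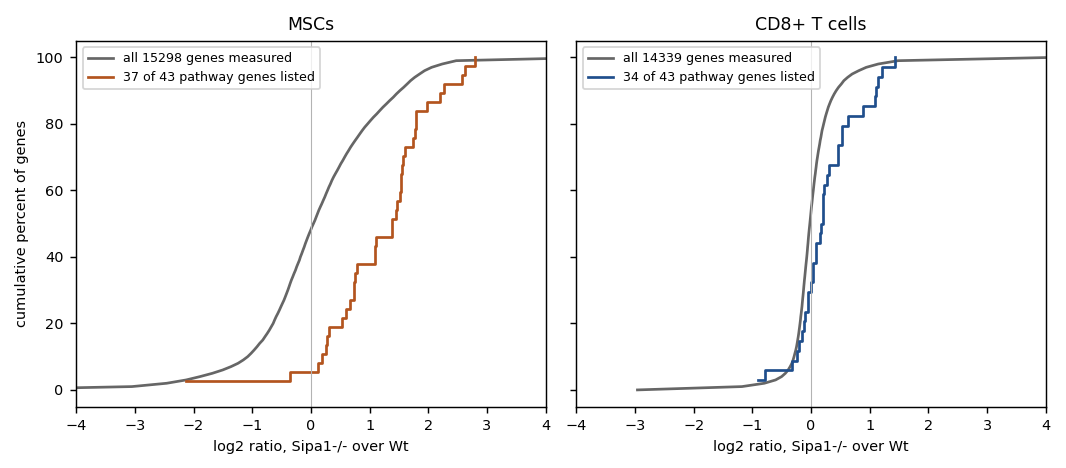
Cumulative percent of genes (y axis) by log2 ratio of *Sipa1*-/- over Wt (x axis) for all genes measured (grey) and for those of the 43 listed genes that were measured (color), in MSCs (left) and CD8+ T cells (right), 1 array per population. In MSCs the colored curve lies to the right of the grey curve over most of its range, with medians of 1.39 and 0.04, and in CD8+ T cells the medians are 0.18 and -0.02.

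The same 4 arrays also set MSCs beside CD8+ T cells within each genotype, so these ratios share arrays with those above. In Wt tumors 34 genes were measured on both arrays, of which 19 were 2-fold or more above CD8+ T cells in MSCs, against 17.3% of all genes measured, and 4 below by as much, against 12.8%. In *Sipa1*-/- tumors 34 genes were measured, 21 of them above, against 21.9% of all genes, and 3 below, against 18.7%. Higher genes made up 57.4% of all genes past 2-fold in Wt and 54.0% in *Sipa1*-/- tumors, 76.6% and 76.3% with the series matrix, and 45.5% and 42.9% with median scaling. The medians were 1.18 in Wt and 2.24 in *Sipa1*-/- tumors. Several ligands and antagonists had the largest ratios. *Fstl1* had log2 ratios of MSCs over CD8+ T cells of 5.04 ± 0.14 in Wt and 5.39 ± 0.14 in *Sipa1*-/- tumors, and *Tgfb2* had 4.92 ± 0.32 and 6.03 ± 0.24. *Tgfb3* had 3.43 and 4.92, *Inhbb* 4.09 and 4.54, and *Bmp4* 4.46 and 3.83. *Grem1* was not well above background on either CD8+ T array and was at least 9.18-fold higher in Wt MSCs and at least 40.2-fold higher in *Sipa1*-/- MSCs. *Gdf10* was at least 58.2-fold higher in Wt MSCs, and its ratio was 5.78 ± 0.21 in *Sipa1*-/- tumors, where it was measured on both arrays. *Fst* was at least 18.4-fold higher in Wt MSCs and had a ratio of 5.60 ± 0.32 in *Sipa1*-/- tumors.

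The receptors also mostly had their higher level in MSCs, 7 of 10 measured by 2-fold or more in either genotype and none lower by that much. *Bmpr1a* had ratios of 3.28 ± 0.22 in Wt and 4.43 ± 0.21 in *Sipa1*-/- tumors, and *Acvr1* had 2.78 ± 0.15 and 4.01 ± 0.15. *Tgfbr3* had 2.48 and 3.88, *Bmpr2* 2.24 and 3.57, and *Acvr2a* 1.71 and 2.79. *Acvr2b* was the receptor whose ratio was smaller in *Sipa1*-/- tumors, at 1.34 ± 0.21 and 0.95 ± 0.21. Among the remaining ligands and antagonists, *Gdf15* had 2.29 and 3.01, *Inhba* 1.21 and 3.27, and *Bmp2* 1.67 and 2.82. Noggin had -0.27 ± 0.21 and -0.35 ± 0.21, which turned above 0 with the series matrix. Of the Smads, *Smad6* had 1.51 ± 0.29 and 3.71 ± 0.31 and *Smad5* 1.01 ± 0.15 and 1.39 ± 0.15. In Wt tumors *Inhba*, *Acvrl1*, *Smad5* and *Id3* fell inside 2-fold with median scaling, and *Bmp2*, *Inhba*, *Acvrl1*, *Acvr2a*, *Smad5* and *Smad6* with normexp.

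**Figure D5:**
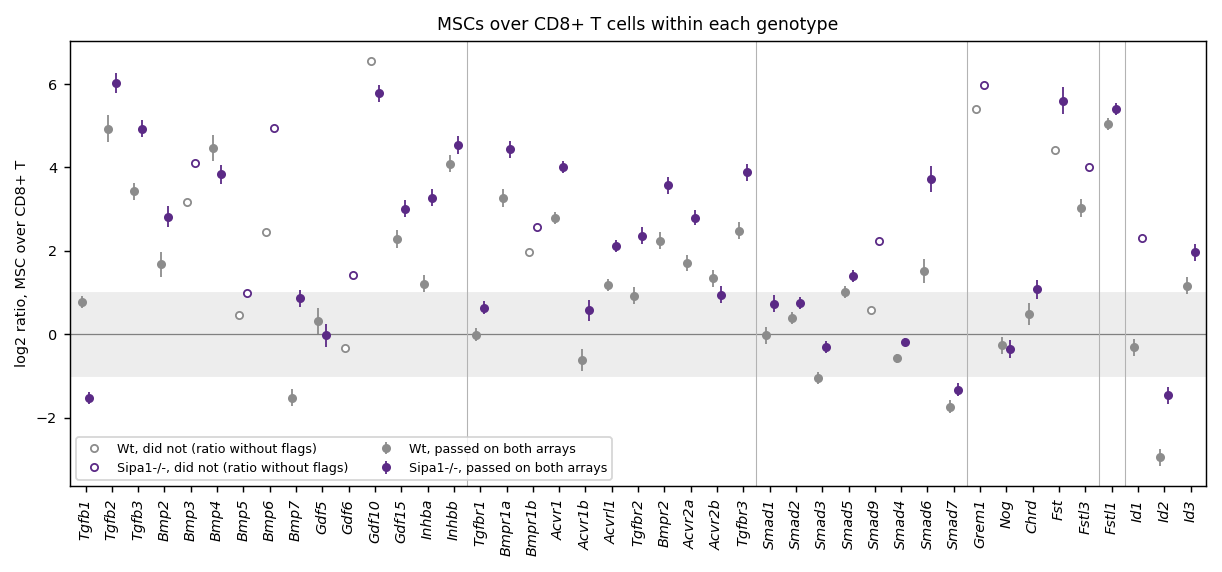
Log2 ratio of MSCs over CD8+ T cells (y axis) for the 43 genes in Wt (grey) and *Sipa1*-/- (purple) tumors, 1 array per population. Filled points passed the flags on both arrays and carry the scanner software's error, open points show the ratio without flags, and the grey band marks less than 2-fold. Most ligands, receptors and antagonists lie above the band, and *Smad7* and *Id2* lie below it in both genotypes.

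The genes that were higher in CD8+ T cells were few. *Id2* had a ratio of MSCs over CD8+ T cells of -2.96 ± 0.20 in Wt and -1.47 ± 0.20 in *Sipa1*-/- tumors. *Smad7* had -1.74 ± 0.15 and -1.33 ± 0.15. Both were thus at least 2-fold lower in MSCs in both genotypes, though with the series matrix the *Sipa1*-/- ratios were -0.94 for *Id2* and -0.80 for *Smad7*. *Smad3* had -1.04 ± 0.14 in Wt and -0.30 ± 0.14 in *Sipa1*-/- tumors, and *Bmp7* had -1.52 ± 0.20 and 0.86 ± 0.20, so that these lay past 2-fold in Wt tumors alone. The Wt value of *Smad3* was -0.59 with the series matrix and -0.94 with normexp, inside 2-fold. *Tgfb1* changed sides, with 0.78 ± 0.14 in Wt and -1.54 ± 0.15 in *Sipa1*-/- tumors, and its CD8+ T levels of -0.12 and 0.08 were close while its MSC levels were 0.66 and -1.46. The type II receptor *Tgfbr2* was well expressed in both cell types, with ratios of 0.92 ± 0.20 and 2.36 ± 0.20, and *Tgfbr1* had -0.01 ± 0.15 and 0.64 ± 0.15. *Smad1* and *Smad4* were within 2-fold in both genotypes, at -0.03 and 0.73 for *Smad1* and at -0.58 and -0.18 for *Smad4*. With the series matrix *Tgfbr1* and *Smad1* in Wt tumors and *Smad3* and *Smad4* in *Sipa1*-/- tumors turned above 0.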

How the data were processed

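The deposited scanner files of the 4 arrays, made with Agilent Feature Extraction, version 12.0.3.1 per the file headers and 9.1 in the submitters' processing notes, give spot intensities that the software had corrected for background and the authors had not normalized between arrays. In the series matrix the authors' intensities are the same values times a constant per array, with medians of 41.0 (Wt MSC), 52.0 (*Sipa1*-/- MSC), 25.5 (Wt CD8+ T) and 30.9 (*Sipa1*-/- CD8+ T). How the constants were set is unknown. Here each array's log2 signals had the 75th percentile of its 59305 non-control spots subtracted. Spots had to pass the flags of the study's methods (not saturated, uniform spot and background, positive and well above background) on both arrays compared. Values were averaged over a probe's spots, then over a gene's probes, in log2 units. Accessions on the arrays were named through a RefSeq table of GRCm38.p6, which matched 57.6% of spots. The 43 genes had 62 probes. Errors propagate the software's error per spot, and the median SD among probes printed on 10 spots was 0.041 in log2 units. A bound sets the brighter level against the higher of the dim probe's signal and the lowest signal well above background on the dim array. It leaves out the spot error. Genes named are the listed genes, *Sipa1*, the 3 other pathway genes with the largest difference per direction and genotype comparison (past 2-fold, above the median signal), and examples from the lists chosen after their values were seen. The genes and lists were chosen with earlier results of these data known. Alternatives were flags on at least 1 array, no flags, median scaling, the series matrix, quantile normalization, genes above the median signal, a gene's brightest probe over the 4 arrays, and normexp with an offset of 50 on median spot signals. The steps were tested on simulated data. R 4.3.3 with limma 3.58.1 and Python 3.11.15 with pandas 2.3.3 and numpy 2.4.6 were used.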

Additional observations from a re-analysis of the deposited data

Results flagged for a closer look

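Among genes that passed the flags, *Bmp7* alone had genotype ratios of opposite signs in the 2 cell types, each past 2 errors. It was higher in *Sipa1*-/- MSCs, with a log2 ratio of 1.47 ± 0.20, and lower in *Sipa1*-/- CD8+ T cells, with -0.91 ± 0.20, on 1 probe. *Id1* had the same pattern when flags were ignored, with 1.84 ± 0.21 in MSCs and -0.78 ± 0.21 in CD8+ T cells. Its *Sipa1*-/- MSC spot failed a uniformity flag. With 1 array behind each level, whether the ratios differ was not tested for either gene.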

How the results depend on the processing

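No paired analysis was possible because each population has 1 array, and leaving out a replicate was not possible either. Changed flags and the signal limit alter how many genes enter, and for the other moves the cause was not tested. The medians were all above 0, and no gene past 2-fold turned sign, under every alternative run.

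Against 23 higher in MSCs (*Sipa1*-/- over Wt), genes above the median signal gave 14, and against a median of 1.39 the values were 1.45 without flags, 1.25 with median scaling, 1.59 with the series matrix, 1.47 with the brightest probe and also above the median signal, and 0.89 with normexp. In CD8+ T cells 5 were higher and 0 lower, and median scaling gave 2 and 1, quantile normalization 3 higher, and genes above the median signal and normexp 1 higher each. The gene lower under median scaling was *Bmp7*. Against 0.18 the CD8+ T median was 0.031 with median scaling, 0.035 above the median signal, and 0.31 with the series matrix. For MSCs over CD8+ T cells in Wt tumors, genes above the median signal gave 5 higher against 19, and against 1.18 the medians were 1.51 with flags on at least 1 array, 0.95 with median scaling, 1.11 with quantile normalization and the brightest probe, 1.63 with the series matrix, 0.85 above the median signal and 0.69 with normexp. In *Sipa1*-/- tumors genes above the median signal gave 11 higher and 1 lower against 21 and 3, the series matrix 1 lower, and against 2.24 the medians were 2.46 with flags on at least 1 array, 2.36 without flags, 2.02 with median scaling, 2.39 with quantile normalization, 2.77 with the series matrix, 2.11 above the median signal and 1.37 with normexp.

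Of the 23 genes higher in MSCs, 20 remained past 2-fold with median scaling, 21 with quantile normalization and 18 with normexp, and all 23 under flags on at least 1 array, no flags, the series matrix and the brightest probe. The series matrix shifted the median of all genes by 0.21 (MSCs), 0.13 (CD8+ T cells), 0.45 (MSCs over CD8+ T cells, Wt) and 0.53 (the same, *Sipa1*-/-), and median scaling by -0.14, -0.15, -0.23 and -0.22. Over all genes, the counts higher and lower by 2-fold in CD8+ T cells were 381 and 201, and 685 and 371 with flags on at least 1 array, 1059 and 633 without flags, 67 and 70 above the median signal and 108 and 98 with normexp. In MSCs they were 2958 and 1733, and 1307 and 901 above the median signal and 1828 and 1190 with normexp. For MSCs over CD8+ T cells in Wt tumors they were 2457 and 1821, and 3898 and 2247 with flags on at least 1 array, 4185 and 2685 without flags, 3539 and 1082 with the series matrix and 860 and 861 above the median signal. In *Sipa1*-/- tumors they were 3131 and 2671, and 4739 and 3138, 5019 and 3569, 4357 and 1357 and 1307 and 1384 under the same settings. Signal over background limits the dim genes, above all in CD8+ T cells, where 9 of the 43 were not well above background on the Wt array.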
